A study of Mus musculus with 20 samples.

Results

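RNA of the ascending thoracic aorta was compared between mice given β-aminopropionitrile (BAPN) and mice given plain water. The comparison rests on 10 of the 20 libraries of the series, 5 from ascending aortas under BAPN and 5 from ascending aortas under water, taken by the region and treatment in their labels. The other 10 libraries hold descending thoracic aorta under the same treatments and serve here to estimate the spread and for values side by side. Both groups are C57BL/6J mice, an inbred laboratory strain, treated for 1 week, and no transgene or other agent is named for either group. The labels give neither the dose of BAPN nor the age or sex of the mice, and they do not say whether libraries of a group came from separate animals, so p-values measure the spread between these libraries only. Of 54532 genes in the count table, 15543 passed the filter on low counts over the 20 libraries and were tested.

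BAPN blocks the lysyl oxidases, copper enzymes that cross-link elastin and collagen outside the cell. The ascending aorta stretches with every heartbeat, and its wall is built of elastic lamellae with smooth muscle cells between them that are tied to the matrix by integrins. Mice given BAPN while they grow are a widely used model of thoracic aortic aneurysm and dissection. Smooth muscle cells also run a circadian clock, a loop in which BMAL1 with CLOCK or NPAS2 drives genes through E-boxes while PER, CRY and REV-ERB proteins repress it.

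Levels are in CPM, a gene's count per 1000000 counts of its library, scaled between libraries by the trimmed mean of M values. Differences are on the log2 scale, BAPN minus water, from edgeR's quasi-likelihood fit, and SE is their standard error. Called genes are those with a Benjamini-Hochberg adjusted p under 0.05 over all genes tested. Library totals ran from 15744725 to 23292294 counts and averaged 19748550 (SD 2125711) counts under water and 17263932 (SD 1331168) under BAPN (n = 5 each, two-sided exact permutation p = 0.0556, where 0.00794 is the smallest possible). The difference of -2484619 counts became -2976688 without water library 2 (exact permutation p = 0.0238) and -2897167 without BAPN library 3 (exact permutation p = 0.0397). The 10 most abundant genes took 10.6% of counts under water and 9.69% under BAPN (exact permutation p = 0.00794), and the part of these differences in the results was not tested. The levels of 33 pseudogenes parted the libraries across the labels. Ascending water 4 and 5 had the higher levels together with all 5 ascending BAPN libraries, and ascending water 1, 2 and 3 had the lower ones. Results are therefore also given from the matched libraries, meaning ascending water 4 and 5 against the 5 BAPN libraries. All 10 descending libraries stayed in that fit to estimate the spread. Of these, only descending water 1, 2 and 5 had the higher levels. Markers of smooth muscle (Acta2, Myh11, Tagln, Cnn1, Smtn and Lmod1) summed to between 19414 and 24529 CPM and none was at 0, so the labelled tissue carries its defining cell type. Sums of markers, here and below, are per 1000000 counts of a library without the scaling between libraries.

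BAPN was followed by many small changes and a few large ones. Of the 15543 genes, 986 were called (6.34%), 534 higher (3.44%) and 452 lower (2.91%). More genes rose than fell here, but fewer rose than fell with upper-quartile scaling (449 higher and 529 lower), no filter on low counts (434 and 517), the GC and length correction (538 and 573), which was added after the data were seen, and a required log2 difference beyond 0.25 (31 and 42). Among the called genes the median log2 difference was 0.24 for those that rose and -0.343 for those that fell. A change of at least 1.5-fold was seen in 45 higher and 109 lower genes, and one of at least 3-fold in 5 higher and 8 lower genes. The 5 BAPN libraries all lay above the 5 water libraries in 420 of the 534 higher genes and all below them in 322 of the 452 lower genes. Such separation occurred in 653 of all tested genes upward (4.2%) and 514 downward (3.31%). For the matched libraries all 986 genes had the same sign, and 171 of the higher and 118 of the lower genes were called (333 of 16214 genes in all, 2.05%). These libraries are among those that gave the 986 calls, so the shared signs are no separate support. Fewer water libraries also make calls harder to reach, which cannot be told apart here from a part of the pseudogene levels. Of the 986 calls, 534 were kept on leaving out each of the 20 libraries in turn. Genes named below as not called, beyond those with the smallest p of a list, were chosen for their role after their values were seen. In these bulk samples, fewer cells of a type and less RNA per cell cannot be told apart.

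**Figure D1:**
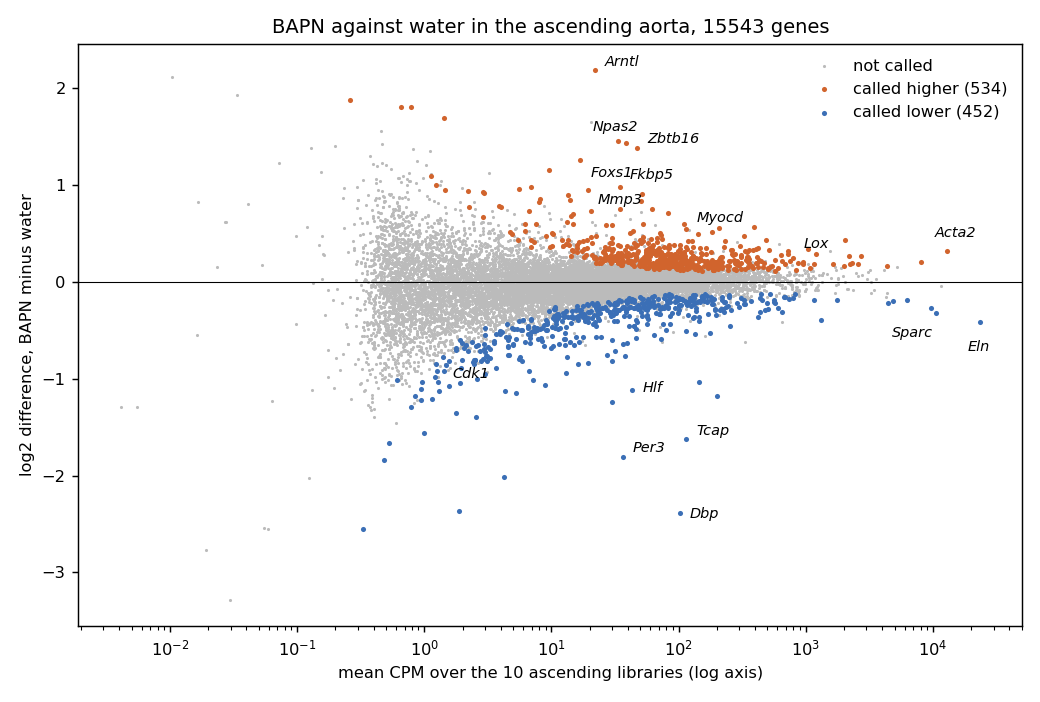
Log2 difference between BAPN and water (vertical) against the mean CPM over the 10 ascending libraries (horizontal, log axis), with each point a gene and called genes in colour. Most of the 986 called genes lie close to 0, while Arntl at the top and Dbp at the bottom stand apart at levels above 10 CPM.

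The enzymes that BAPN inhibits did not move as a family. Lox, the main lysyl oxidase of the artery wall, stood at 680.1, 772, 795, 709 and 708 CPM in the water libraries and 833, 915, 906, 861 and 834 CPM in the BAPN libraries. All BAPN values lay above all water values (log2 difference 0.25, SE 0.05, adjusted p = 0.00329). The tropoelastin-directed relative Loxl1 was called lower (-0.15, SE 0.05, adjusted p = 0.045), and its groups overlapped. No call was made for the other relatives Loxl4 (-0.27, SE 0.10), Loxl2 (-0.06, SE 0.06) and Loxl3 (-0.04, SE 0.05). Over the matched libraries Lox was at 0.29, adjusted p = 0.0165, and Loxl1 did not pass (-0.07, adjusted p = 0.682). The Loxl1 call was also lost without any 1 of the libraries in this list: Loxl1 (ascending water 1, 2, 3 and 4, ascending BAPN 1, 2, 4 and 5, descending BAPN 1, 3 and 4).

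Every called transcript of the elastic fibre, a substrate of these enzymes, was lower. Of the elastic fibre genes there were 0 called higher and 5 lower of 20 tested (median -0.109), where the median over all tested genes was -0.00507. Eln (elastin; ENSMUSG00000029675, GRCm38 chr5:134702593-134747323) stood at 27064, 27383, 28446, 24744 and 25271 CPM in the water libraries and 18671, 20972, 20648, 20093 and 19658 CPM in the BAPN libraries. The groups were fully apart, and the level fell 1.33-fold (log2 difference -0.41, SE 0.07, adjusted p = 0.000303). Mfap4, a protein of the microfibrils around elastin, went from 1482 (SD 59.6) to 1133 (SD 59.0) CPM (log2 difference -0.39, SE 0.05, adjusted p = 8.19e-06). Fbln5, which guides tropoelastin onto microfibrils, was at -0.19, SE 0.04, and Mfap5, another microfibril protein, at -0.19, SE 0.04. Ltbp3, which holds latent TGF-β in the matrix, was called at -0.16, SE 0.04. The scaffold itself, Fbn1 (fibrillin-1), was not called, with -0.02 on the log2 scale, and neither was the crosslinking helper Efemp2 (fibulin-4) with -0.06. In the matched libraries Mfap4 was at -0.33, adjusted p = 0.00381, while Eln (-0.32, adjusted p = 0.0504), Fbln5 (-0.15, adjusted p = 0.148), Mfap5 (-0.14, adjusted p = 0.162) and Ltbp3 (-0.13, adjusted p = 0.317) did not pass. The list's median was -0.0974 there. Leaving out 1 library ended the call of Ltbp3 (ascending water 1 and 3, ascending BAPN 2, 4 and 5).

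Fibrillar and fibril-associated collagens, which give the wall its strength under load, were lower without exception among those called, with 0 called higher and 9 lower of 19 tested (median -0.214). Col3a1, the collagen deficient in vascular Ehlers-Danlos syndrome, was at 10350.0, 10971, 10510.0, 10332 and 11099 CPM in the water libraries and 9406, 8537, 8539.8, 8846 and 8729 CPM in the BAPN libraries. No BAPN value reached the lowest water value (log2 difference -0.27, SE 0.04, adjusted p = 0.000236). Col1a2, a chain of type I collagen, went from 6636 (SD 149) to 5841 (SD 212) CPM (-0.18, SE 0.04), and the other chain, Col1a1, was at -0.22, SE 0.06. Falls on the log2 scale were larger in the less abundant Col11a2 (-0.71, SE 0.13), Col8a1 (-0.48, SE 0.12) and Col27a1 (-0.45, SE 0.07). Col16a1 (-0.34) and Col12a1 (-0.21), which decorate fibrils, and Col5a2 (-0.13), which sets fibril diameter, were also called lower. For the matched libraries Col27a1 (-0.41, adjusted p = 0.0214) and Col3a1 (-0.29, adjusted p = 0.0107) passed and the other 7 did not, with a median of -0.181 over the list. Single libraries whose removal ended a call were those for Col1a1 (ascending BAPN 2), Col8a1 (ascending water 1, ascending BAPN 1), Col16a1 (ascending water 3), Col12a1 (ascending water 1, 2, 3 and 4, ascending BAPN 1, 2, 4 and 5) and Col5a2 (ascending water 1, 2, 3, 4 and 5, ascending BAPN 1, 2 and 5, descending water 3, descending BAPN 2, 3 and 4).

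The machinery that modifies and trims procollagen followed, with 0 called higher and 9 lower of 25 tested (median -0.0855). Sparc, a secreted protein that binds collagen, stood at 11616, 12571, 11567, 11592 and 11877 CPM in the water libraries and 9468, 9667, 9248, 9587 and 9513 CPM in the BAPN libraries. The highest BAPN value was below the lowest water value (log2 difference -0.32, SE 0.04, adjusted p = 2.81e-06). Bmp1, the protease that removes the C-propeptide, went from 258 (SD 5.45) to 215 (SD 9.55) CPM (-0.26, SE 0.04). Adamts2, which removes the N-propeptide, was at -0.17, SE 0.04, and Pcolce, which enhances Bmp1, at -0.20, SE 0.05. The prolyl 3-hydroxylases P3h3 (-0.25, SE 0.04) and P3h1 (-0.15, SE 0.04), the P3h1 partner Crtap (-0.17, SE 0.04), the lysyl hydroxylase Plod2 (-0.14, SE 0.04) and the chaperone Fkbp10 (-0.16, SE 0.04) were also called lower. The collagen chaperone Serpinh1 was not called and lay at -0.03. Over the matched libraries Sparc (-0.31, adjusted p = 0.000532), Bmp1 (-0.26, adjusted p = 0.0109) and P3h3 (-0.25, adjusted p = 0.0288) passed, and the other 6 did not. Removing 1 library ended the calls of Pcolce (ascending water 4, ascending BAPN 2 and 3), P3h1 (ascending water 1, 2 and 3, ascending BAPN 1, 2 and 4), Fkbp10 (ascending water 1, 2 and 3, ascending BAPN 2, 3 and 4) and Plod2 (ascending water 1, 2, 3 and 4, ascending BAPN 1, 2, 3 and 4, descending water 4, descending BAPN 1, 2 and 4). With GC content and length of transcripts corrected for, a setting added after the data were seen, Crtap was no longer called (adjusted p = 0.0854).

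Basement membrane genes moved less evenly, with 1 called higher and 3 lower of 22 tested (median 0.00912). Col4a3 and Col4a4, neighbouring genes for minor chains of type IV collagen, fell (-0.35, SE 0.05, and -0.37, SE 0.05). The common chains Col4a1 (0.03) and Col4a2 (0.07) were not called. Agrn (agrin) fell as well (-0.16, SE 0.04), and Sparcl1, a relative of Sparc, rose (0.23, SE 0.05), opposite to Sparc. In the matched libraries Agrn did not pass (-0.17, adjusted p = 0.148). Among the proteoglycans there were 0 called higher and 1 lower of 22 tested (median -0.0808), or 4.55% beside 6.34% of all genes tested. The called gene was Bgn, the small proteoglycan biglycan (-0.20, SE 0.05), while its relatives Dcn (0.15) and Fmod (-0.26) and the adhesive Ecm2 (0.13) were not. Matricellular genes held 1 called higher and 3 lower of 22 tested (median -0.0719). Ccn3 rose from 1723 (SD 72.8) to 2324 (SD 146) CPM (log2 difference 0.43, SE 0.05, adjusted p = 1.93e-06), and its family member Ccn5 fell from 160.2 (SD 9.96) to 110.0 (SD 14.5) CPM (log2 difference -0.54, SE 0.10, adjusted p = 0.0011). Matn4 (matrilin-4) fell (-0.66, SE 0.14), as did the tenascin Tnxb (-0.20, SE 0.06). The injury-responsive members Postn (0.00), Tnc (0.18) and Thbs1 (0.10) were not called. Ccn3 alone among these matricellular genes passed in the matched libraries (0.45, adjusted p = 0.000289), where Bgn was at -0.17, adjusted p = 0.289. The calls of Bgn (ascending water 1, ascending BAPN 1 and 4) and Tnxb (ascending water 1, 3 and 5, ascending BAPN 1, 2 and 4, descending water 3, descending BAPN 2 and 3) were lost without a single library.

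Genes that cut the matrix moved in both directions, with 7 called higher and 4 lower of 40 tested (median -0.0193). Mmp3 (stromelysin-1), which degrades proteoglycans and activates other metalloproteinases, stood at 14.9, 13.3, 12.6, 11.5 and 13.4 CPM in the water libraries and 23.6, 23.8, 27.9, 26.9 and 25.1 CPM in the BAPN libraries. Its lowest BAPN value exceeded its highest water value by a wide margin (log2 difference 0.95, SE 0.11, adjusted p = 5.38e-06). Mmp14, the membrane collagenase, rose from 161 (SD 8.01) to 200.3 (SD 6.17) CPM (0.31, SE 0.06), and Plat, tissue plasminogen activator, from 97.4 (SD 8.08) to 119 (SD 2.37) CPM (0.29, SE 0.05). Timp4, an inhibitor of metalloproteinases, rose too, from 5.77 (SD 1.64) to 10.5 (SD 1.31) CPM (0.86, SE 0.14). Among the ADAMTS proteases the versican-cleaving Adamts4 (0.74, SE 0.20), Adamts15 (0.36, SE 0.09) and Adamts9 (0.21, SE 0.06) were higher. Adamts10 (-0.46, SE 0.05) and Adamts17 (-0.65, SE 0.11), which are linked to fibrillin microfibrils, were lower, as were the collagenolytic Ctsk (cathepsin K, -0.32, SE 0.06) and Mmp23 (-0.19, SE 0.04). The gelatinases Mmp2 (-0.09) and Mmp9 (-0.15) and the inhibitor Timp1 (-0.09) were not called. Matched libraries kept the calls of Mmp3 (1.03, adjusted p = 0.000604), Timp4 (1.11, adjusted p = 0.000227), Mmp14 (0.32, adjusted p = 0.0272), Adamts10 (-0.42, adjusted p = 0.000831) and Ctsk (-0.34, adjusted p = 0.0164), but not those of Plat (0.23, adjusted p = 0.0546), Adamts15 (0.43, adjusted p = 0.0666), Adamts4 (0.71, adjusted p = 0.25), Adamts9 (0.27, adjusted p = 0.102), Adamts17 (-0.51, adjusted p = 0.0714) and Mmp23 (-0.13, adjusted p = 0.315). The calls that depended on a single library were those of Adamts4 (ascending water 2, ascending BAPN 1 and 2) and Adamts9 (ascending water 2, 3, 4 and 5, ascending BAPN 1, 2, 3 and 5).

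Genes of the contractile apparatus of smooth muscle were more often higher, with 10 called higher and 1 lower of 29 tested (median 0.118). Acta2, smooth muscle actin, stood at 11488, 12192, 11296, 11361 and 10924 CPM in the water libraries and 13444, 14227, 14701, 15175 and 13812 CPM in the BAPN libraries. The groups did not overlap (log2 difference 0.32, SE 0.05, adjusted p = 5.39e-05). Tpm1 (tropomyosin), which lies along actin filaments, went from 1976 (SD 106) to 2387 (SD 111) CPM (0.27, SE 0.04), and Flna (filamin A), which ties actin to the membrane, from 7528 (SD 547) to 8666 (SD 388) CPM (0.20, SE 0.05). The kinases Rock1 (0.33, SE 0.07) and Rock2 (0.33, SE 0.04), which raise calcium sensitivity, and Prkg1 (0.38, SE 0.07), which relays nitric oxide, rose. Synpo2 (0.20, SE 0.05), Tpm2 (0.19, SE 0.05), Csrp1 (0.18, SE 0.05) and Actn1 (0.14, SE 0.04) were also called higher, and Mylk4 was called lower (-0.22, SE 0.06). Several of the defining genes were not called: Tagln was at 0.00, Cnn1 at 0.04, Lmod1 at 0.00 and Myh11 at 0.15, the values of Tagln and Lmod1 changing sign with the scaling or the fit. Tagln stood at 55.2 to 73.8 CPM under water, far below the 10924 to 12192 CPM of Acta2. How fully Tagln reads were counted was not tested. The 6 smooth muscle markers summed to between 19414 and 21071 CPM under water and between 22739 and 24529 under BAPN, without overlap, with 1 of the 6 called, and the part of smooth muscle content in these results was not tested. For the matched libraries the count was 7 higher and 0 lower, and Prkg1 (0.34, adjusted p = 0.0675), Rock1 (0.29, adjusted p = 0.0921), Csrp1 (0.22, adjusted p = 0.104) and Mylk4 (-0.22, adjusted p = 0.2) did not pass. A single library ended the calls of Tpm2 (ascending water 3, 4 and 5, ascending BAPN 2, 3 and 4), Csrp1 (ascending water 3 and 5, ascending BAPN 2, 3 and 4), Actn1 (ascending water 3, 4 and 5, ascending BAPN 1, 2, 3, 4 and 5) and Mylk4 (ascending water 2 and 5, ascending BAPN 1, 2, 3 and 4). Synpo2 was not called after the GC and length correction (adjusted p = 0.0803).

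Among the factors that switch smooth muscle between contractile and other states there were 4 called higher and 1 lower of 25 tested (median 0.0583). Myocd (myocardin), the coactivator of the contractile genes, stood at 87.1, 101, 91.5, 84.8 and 105 CPM in the water libraries and 136, 143, 139, 139.6 and 127 CPM in the BAPN libraries. All BAPN values exceeded all water values (log2 difference 0.54, SE 0.08, adjusted p = 0.000103). Foxs1, a forkhead factor of cells around vessels, stood at 12.5, 10.8, 10.4, 8.19 and 7.61 CPM in the water libraries and 32.5, 27.7, 20.8, 15.2 and 22.6 CPM in the BAPN libraries, again with no overlap (log2 difference 1.26, SE 0.19, adjusted p = 0.000116). Tead1, the DNA-binding partner of YAP, rose (0.30, SE 0.05), as did Foxo3 (0.22, SE 0.06), and the mesenchymal homeobox gene Prrx1 fell (-0.22, SE 0.04). The partner of myocardin, Srf, was not called (0.08), and neither was Klf4 (0.11), a marker of switched cells. Matched libraries kept Myocd (0.52, adjusted p = 0.0154), Foxs1 (1.59, adjusted p = 0.00138) and Tead1 (0.34, adjusted p = 0.00536), but not Prrx1 (-0.21, adjusted p = 0.0595) or Foxo3 (0.17, adjusted p = 0.414). The call of Foxo3 (ascending water 1, 2 and 3, ascending BAPN 1, 3, 4 and 5) was lost without a single library.

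Integrins and the focal adhesion proteins that join them to actin moved mainly upward, with 14 called higher and 1 lower of 38 tested (median 0.0751). Itgb1, the shared β1 chain, stood at 1922, 1947, 1844, 1894 and 1852 CPM in the water libraries and 1979, 2151, 2184, 2163 and 2155 CPM in the BAPN libraries. The groups were apart although the change was small (log2 difference 0.17, SE 0.04, adjusted p = 0.00557). Its partners Itga5 (0.48, SE 0.11), the fibronectin receptor chain, Itga7 (0.23, SE 0.05), a laminin receptor chain, and Itga1 (0.15, SE 0.04) rose, and Itga10 (-0.27, SE 0.08), a collagen receptor chain, fell. Inside the cell, the linkers Tln1 (talin, 0.28, SE 0.05), Vcl (vinculin, 0.28, SE 0.06), Fermt2 (kindlin-2, 0.24, SE 0.04) and Lims1 (0.17, SE 0.04) rose. So did the actin-bound Tes (0.48, SE 0.06), Flnc (0.37, SE 0.06), Pdlim5 (0.32, SE 0.07), Pdlim7 (0.19, SE 0.04), Ldb3 (0.18, SE 0.05) and Svil (0.16, SE 0.05). The kinases Ptk2 (0.09) and Ilk (-0.17) were not called. Over the matched libraries the count was 8 higher and 0 lower, including a higher gene not called over all libraries. The members that no longer passed were Itgb1 (0.18, adjusted p = 0.0691), Itga7 (0.19, adjusted p = 0.203), Itga5 (0.45, adjusted p = 0.174), Itga1 (0.18, adjusted p = 0.144), Itga10 (-0.26, adjusted p = 0.233), Lims1 (0.09, adjusted p = 0.528), Ldb3 (0.20, adjusted p = 0.173) and Svil (0.22, adjusted p = 0.0546). Removing 1 library ended the calls of Itga1 (ascending water 2, 4 and 5, ascending BAPN 3, 4 and 5), Itga10 (ascending water 1, 3 and 5, ascending BAPN 1, 3 and 4), Lims1 (ascending water 1 and 3, ascending BAPN 4), Ldb3 (ascending water 2, 3 and 4, ascending BAPN 3, 4 and 5) and Svil (ascending water 2, 3, 4 and 5, ascending BAPN 1, 2 and 3). Itga1 (adjusted p = 0.207) and Svil (adjusted p = 0.0732) were not called after the GC and length correction.

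**Figure D2:**
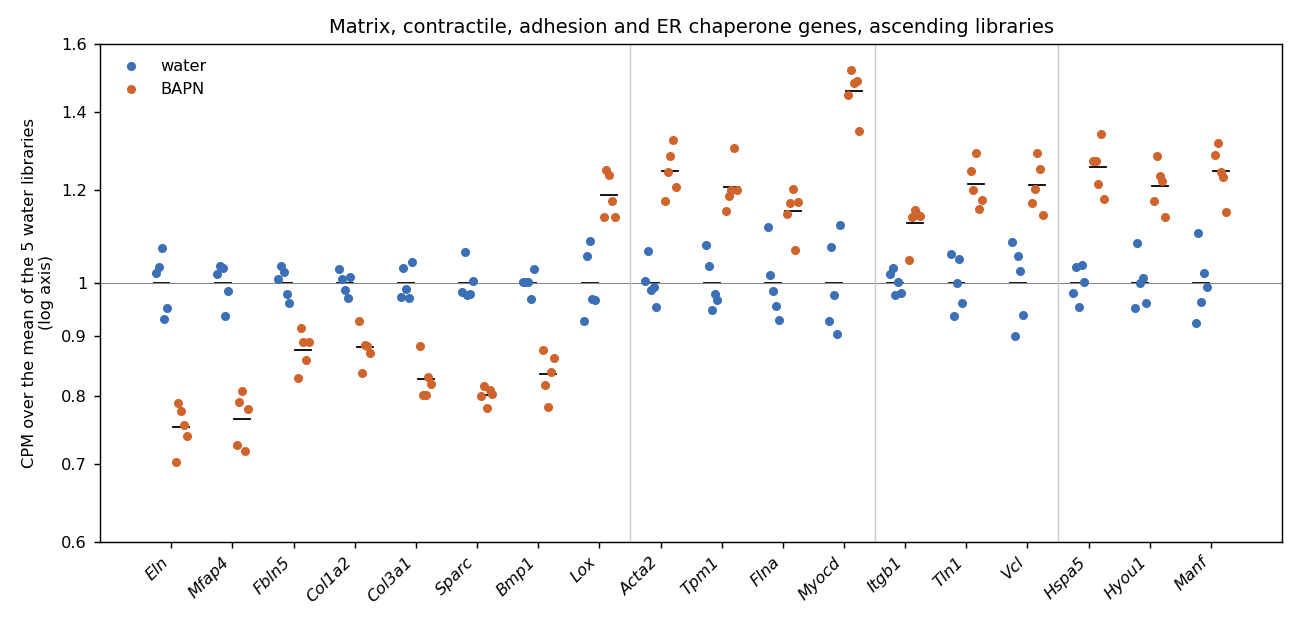
CPM of 18 genes in each ascending library, divided by the mean of the 5 water libraries (vertical, log axis), with water and BAPN side by side and a bar at each group's mean. Elastin, collagen and collagen-processing genes lie below 1 under BAPN, while Lox, contractile, adhesion and endoplasmic reticulum chaperone genes lie above 1.

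Heart muscle markers were also higher in some BAPN libraries. The 8 markers Myh6, Myl2, Myl3, Tnnt2, Tnni3, Actc1, Mybpc3 and Actn2 summed to between 411 and 1010 CPM under water and between 754 and 1301 under BAPN, so that the groups overlapped. None of the 8 was at 0 and 3 were called higher. In the longer list of heart muscle genes there were 4 called higher and 1 lower of 24 tested (median 0.5). The higher ones were Myl3 (0.91, SE 0.23), Actn2 (0.59, SE 0.15), Tnnt2 (0.43, SE 0.12) and Tnnc1 (0.73, SE 0.22), and none passed in the matched libraries (Myl3 0.48, adjusted p = 0.421, Actn2 0.40, adjusted p = 0.265, Tnnt2 0.37, adjusted p = 0.172 and Tnnc1 0.45, adjusted p = 0.326). Myom2, a gene of the M-band of striated muscle, was at 0.85, SE 0.22, and did not pass in the matched libraries (0.51, adjusted p = 0.309). Leaving out 1 library ended the calls of Myl3 (ascending water 3, ascending BAPN 1), Actn2 (ascending water 3, ascending BAPN 4), Tnnt2 (ascending water 2, 3 and 4, ascending BAPN 3, 4 and 5), Tnnc1 (ascending water 2, 3 and 4, ascending BAPN 1, 4 and 5, descending water 3, descending BAPN 1) and Myom2 (ascending water 2 and 3, ascending BAPN 4). The part of heart muscle RNA in the contractile results was not tested. The member that fell was Tcap, the titin cap of striated muscle, at 257, 192, 121, 143 and 157 CPM in the water libraries and 51.0, 41.4, 53.5, 66.3 and 68.9 CPM in the BAPN libraries. Its groups were far apart (log2 difference -1.63, SE 0.17, adjusted p = 1.23e-06), and it also fell in the matched libraries (-1.42, adjusted p = 2.28e-05). Skeletal muscle genes held 1 called higher and 1 lower of 8 tested (median 0.0237), where the calcium store gene Casq1 was lower (-0.19, SE 0.06), with Eno3 at 0.27, adjusted p = 0.271 and Actn3 at -0.44, adjusted p = 0.395. Acta1, skeletal muscle actin, was at 1.70, SE 0.46, a call that single libraries ended, as for Casq1: Acta1 (ascending water 2, 3 and 5, ascending BAPN 1 and 5) and Casq1 (ascending water 1, 2 and 3, ascending BAPN 1, 2 and 3). Acta1 went from 0.677 (SD 0.420) to 2.20 (SD 1.33) CPM, and its groups overlapped. Neither Acta1 (1.65, adjusted p = 0.264) nor Casq1 (-0.10, adjusted p = 0.532) passed in the matched libraries.

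Among signals that act on the wall through surface receptors, 6.98% of TGF-β and BMP genes, 10.5% of Notch genes, 16.1% of Wnt genes and 18.4% of growth factor genes were called, beside 6.34% of all genes tested. Of the 31 Wnt genes, 23 had a negative log2 difference, beside 7990 of all 15543 genes. TGF-β and BMP genes held 2 called higher and 1 lower of 43 tested (median 0.0210). Skil (SnoN), a repressor that TGF-β signalling induces, rose (0.35, SE 0.06), as did Lrrc32 (GARP), which holds latent TGF-β on cells (0.29, SE 0.07), and the ligand gene Gdf10 fell (-0.27, SE 0.05). Bmp4, another ligand gene, was at -0.21, adjusted p = 0.0627. The ligand Tgfb2 (0.13) and the receptor Tgfbr2 (-0.07) were not called. Wnt genes held 1 called higher and 4 lower of 31 tested (median -0.160), with the secreted antagonists Wif1 (-0.36, SE 0.06) and Sfrp4 (-0.56, SE 0.11), the ligand Wnt11 (-0.50, SE 0.12) and the inhibitor Nkd2 (-0.40, SE 0.11) lower and Sost (sclerostin) higher (0.35, SE 0.07). Notch genes held 0 called higher and 2 lower of 19 tested (median -0.0496), which were the coactivator Maml2 (-0.23, SE 0.07) and the ligand Jag1 (-0.20, SE 0.06), while the ligands Dll1 (0.39, adjusted p = 0.0812) and Dll4 (-0.29, adjusted p = 0.319) were not called. Growth factor genes held 5 called higher and 2 lower of 38 tested (median -0.0332). Igfbp3, which binds insulin-like growth factors, rose (0.60, SE 0.09) and Igf1 itself fell (-0.34, SE 0.06). Pdgfb fell (-0.41, SE 0.09), and the EGF receptor ligand Ereg (0.62, SE 0.14), the receptors Egfr (0.21, SE 0.06) and Fgfr2 (0.20, SE 0.05) and the neurotrophin Bdnf (0.40, SE 0.12) were higher. YAP and TAZ targets held 3 called higher and 0 lower of 23 tested (median 0.103), namely Igfbp3, the kinase Lats2 (0.31, SE 0.06) and Rbms3 (0.17, SE 0.05), while the classical targets Ccn1 (-0.41), Ccn2 (0.32) and Ankrd1 (0.65) were not called.

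In the matched libraries the passing genes of these signalling lists were Gdf10 (-0.24, adjusted p = 0.0453), Wif1 (-0.35, adjusted p = 0.0245), Sfrp4 (-0.55, adjusted p = 0.0474), Sost (0.42, adjusted p = 0.0275), Igfbp3 (0.54, adjusted p = 0.0265), Igf1 (-0.32, adjusted p = 0.0325) and Fgfr2 (0.27, adjusted p = 0.0342). The calls that single libraries ended were those of Wnt11 (ascending water 4), Nkd2 (ascending water 1, 2, 3 and 4, ascending BAPN 1, 2 and 4), Maml2 (ascending water 1, 3 and 5, ascending BAPN 1, 2, 4 and 5), Jag1 (ascending water 1, 3, 4 and 5, ascending BAPN 1, 2, 4 and 5, descending water 1, 2, 3, 4 and 5, descending BAPN 1, 4 and 5), Fgfr2 (ascending water 5, ascending BAPN 3), Egfr (ascending water 1, 2 and 4, ascending BAPN 1, 3 and 5), Bdnf (ascending water 1, 2, 3 and 4, ascending BAPN 1, 3, 4 and 5, descending water 2 and 4, descending BAPN 1, 2, 3 and 4) and Rbms3 (ascending water 1, 2, 3 and 4, ascending BAPN 2, 3, 4 and 5, descending water 3 and 4, descending BAPN 1 and 4). The list for hereditary thoracic aortic disease held 5 called higher and 5 lower of 29 tested (median 0.0217). Not every member is an established disease gene, and Skil is 1 that is not. Besides Lox, Acta2, Prkg1, Flna and Skil on the higher side and Eln, Col3a1, Mfap5, Bgn and Col5a2 on the lower, no member was called, among them Tgfbr1 (0.18), Smad3 (-0.03) and Mylk (0.11).

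The largest rise and the largest fall among the genes named here, Arntl and Dbp, both lay in the circadian clock. The core clock list had 5 called higher and 7 lower of 20 tested (median -0.177), and the list of clock output genes had 1 called higher and 6 lower of 18 tested (median -0.0560). These shares were 60.0% and 38.9%, beside 6.34% of all genes tested. Groups did not overlap in 4 higher and 6 lower core genes and in 1 higher and 6 lower output genes. Over all genes tested this held for 4.2% upward and 3.31% downward. Arntl, which encodes BMAL1 (ENSMUSG00000055116, GRCm38 chr7:113207465-113314126), stood at 7.18, 4.55, 11.2, 8.72 and 7.46 CPM in the water libraries and 42.1, 40.7, 34.5, 34.0 and 28.7 CPM in the BAPN libraries. The BAPN libraries all lay far above the water libraries, a 4.55-fold rise (log2 difference 2.19, SE 0.16, adjusted p = 2.02e-09). Its dimer partners rose with it: Npas2 from 20.6 (SD 4.40) to 56.0 (SD 9.94) CPM (log2 difference 1.44, SE 0.15, adjusted p = 9.03e-07) and Clock from 87.4 (SD 6.03) to 133 (SD 5.56) CPM (log2 difference 0.60, SE 0.05, adjusted p = 1.36e-08).

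The called repressors of the loop were lower, apart from Cry1. Per3 stood at 59.5, 52.1, 48.3, 58.5 and 65.3 CPM in the water libraries and 12.8, 14.5, 20.7, 15.3 and 17.6 CPM in the BAPN libraries. The groups did not overlap (log2 difference -1.81, SE 0.12, adjusted p = 3.14e-10). Per2 went from 44.9 (SD 4.12) to 28.7 (SD 3.23) CPM (-0.64, SE 0.08), and Per1 was not called (-0.46, SE 0.15, adjusted p = 0.0766). Cry1 stood at 4.49, 4.33, 4.52, 4.83 and 5.04 CPM in the water libraries and 9.12, 9.35, 12.02, 8.61 and 6.60 CPM in the BAPN libraries, and rose (log2 difference 0.98, SE 0.15, adjusted p = 0.000181), while Cry2 was not called (-0.10). The nuclear receptor repressor Nr1d2 (REV-ERBβ) went from 196 (SD 13.8) to 95.8 (SD 12.1) CPM (-1.03, SE 0.09), and Nr1d1 (REV-ERBα) was at -0.53, SE 0.13. The activator of the same sites, Rora, was called higher (0.16, SE 0.05). Ciart, a repressor that binds BMAL1, stood at 3.69, 3.89, 1.202, 3.57 and 3.41 CPM in the water libraries and 0.378, 0.733, 0.732, 0.441 and 0.747 CPM in the BAPN libraries. Water library 3 was lower than the other water libraries and still above all BAPN libraries (log2 difference -2.36, SE 0.31, adjusted p = 1.54e-05). The repressors Bhlhe41 (-1.24, SE 0.10) and Bhlhe40 (-0.58, SE 0.09) fell. Nr1d1 (-0.24, adjusted p = 0.547) and Rora (0.14, adjusted p = 0.407) did not pass in the matched libraries, where the other 10 called genes of the core list and also Per1 (-0.76, adjusted p = 0.0259) did. The calls that depended on a single library were those of Nr1d1 (ascending water 1 and 2, ascending BAPN 4) and Rora (ascending water 1, 2, 3 and 4, ascending BAPN 1, 2, 3 and 4, descending water 2 and 3, descending BAPN 1), and Rora was not called after the GC and length correction (adjusted p = 0.136).

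Output genes, which BMAL1 and CLOCK drive and which pass the rhythm on, fell too where they were called, apart from Nfil3. Dbp (ENSMUSG00000059824, GRCm38 chr7:45705088-45710203), a leucine zipper factor that binds D-boxes, stood at 204, 184, 151, 163 and 155 CPM in the water libraries and 22.7, 31.1, 40.2, 29.6 and 40.1 CPM in the BAPN libraries. It fell 5.24-fold with no overlap (log2 difference -2.39, SE 0.14, adjusted p = 1.46e-10). The related factors Tef, from 280.5 (SD 17.7) to 124 (SD 15.4) CPM (-1.18, SE 0.08), and Hlf, from 59.2 (SD 5.99) to 27.3 (SD 3.24) CPM (-1.12, SE 0.09), fell too. Nfil3, which binds the same D-boxes and represses them, rose, with 11.01, 8.61, 21.9, 19.3 and 27.6 CPM in the water libraries and 45.8, 47.8, 58.5, 58.8 and 33.4 CPM in the BAPN libraries. Its water libraries varied widely and all stayed below the BAPN libraries (log2 difference 1.46, SE 0.28, adjusted p = 0.00177), but it was not called in the matched libraries (1.06, adjusted p = 0.117). Tspan4 (-0.59, SE 0.06), the cell cycle kinase Wee1 (-0.84, SE 0.12) and the cilium gene Cys1 (-0.46, SE 0.08) were lower. Metabolic outputs such as Nampt (0.16) and Pdk4 (0.34) were not called. The labels give no time of day at which tissue was taken, so a shift of the clock and a difference in collection time cannot be told apart.

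Promoters of 5 called clock genes hold letters that clock factors are known to bind. Stretches of GRCm38.p6 from RefSeq, read 5′ to 3′ on the gene's strand and ending before the start site, are given because they set the motif beside the change. Matches stand in capitals: the E-box CACGTG in the first 3, the D-box TTATGTAA in Per3 and the ROR element TAGGTCA, on the opposite strand, in Nfil3.
Ciart, chr3:95882232-95882379, minus strand: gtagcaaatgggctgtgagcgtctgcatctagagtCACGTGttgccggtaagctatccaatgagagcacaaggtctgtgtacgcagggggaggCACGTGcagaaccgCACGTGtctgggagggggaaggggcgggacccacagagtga
Bhlhe41, chr6:145865533-145865608, minus strand: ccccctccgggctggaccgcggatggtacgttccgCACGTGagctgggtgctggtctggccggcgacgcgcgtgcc
Cry1, chr10:85185074-85185149, minus strand: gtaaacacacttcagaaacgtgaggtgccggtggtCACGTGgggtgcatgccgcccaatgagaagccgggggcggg
Per3, chr4:151044781-151044905, minus strand: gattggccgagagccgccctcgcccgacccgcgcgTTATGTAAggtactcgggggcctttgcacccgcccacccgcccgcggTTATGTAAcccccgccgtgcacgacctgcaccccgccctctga
Nfil3, chr13:52981040-52981086, minus strand: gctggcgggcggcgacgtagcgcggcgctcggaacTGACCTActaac
Over the 250 bases before the start site, searched on both strands, CACGTG occurred in 6.02% of 32851 windows, either D-box form (TTATGTAA or TTACGTAA) in 0.931% and TAGGTCA in 2.23%. Of the called clock genes, the E-box was found in 4 of 10 lower genes with a window (Bhlhe41, Ciart, Tef and Tspan4) and in 1 of 6 higher genes (Cry1). It was found in 2 of 13 clock genes that were not called, Per1 and Lonrf3. The D-box was found in 1 of 10 lower genes (Per3), 0 of 6 higher genes and 0 of 13 not called. The ROR element was found in 1 of 6 higher genes (Nfil3), 0 of 10 lower genes and 0 of 13 not called. Ciart holds 3 E-boxes, at 116, 58 and 44 bases before the start, and Per3 holds 2 D-boxes, at 205 and 158 bases. Per2, Bhlhe40 and Wee1 have no entry. A match is a run of letters and not a measured binding site, and its absence says only that the letters are not in this window.

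**Figure D3:**
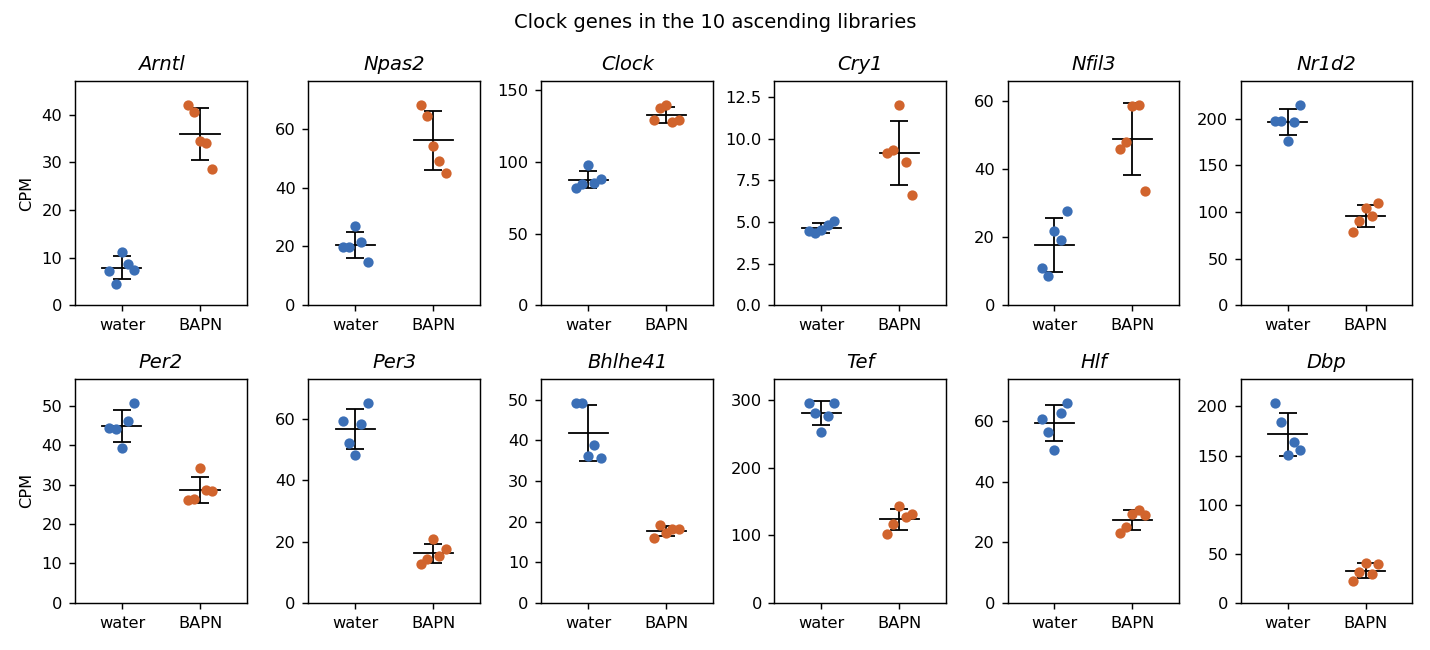
CPM of 12 clock genes (vertical, linear axis from 0) in the 5 water and 5 BAPN ascending libraries, with the mean and SD of each group in black. Arntl, Npas2, Clock, Cry1 and Nfil3 are higher under BAPN, the other 7 are lower, and the groups do not overlap in any panel. The 12 genes are a selection from the clock lists, and members such as Nr1d1, Rora, Per1 and Cry2 are not shown.

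Genes that glucocorticoids induce through their receptor were partly higher, with 7 called higher and 0 lower of 28 tested (median 0.0603). Zbtb16, a zinc finger repressor, stood at 26.0, 33.6, 23.4, 23.0 and 26.0 CPM in the water libraries and 60.5, 57.2, 90.3, 68.7 and 65.9 CPM in the BAPN libraries. Fkbp5, a co-chaperone that dampens the receptor, stood at 25.6, 22.7, 20.5, 24.9 and 23.1 CPM in the water libraries and 46.6, 37.6, 55.5, 47.0 and 43.2 CPM in the BAPN libraries. In both genes the groups were apart (Zbtb16, log2 difference 1.38, SE 0.14, adjusted p = 7.92e-07, and Fkbp5, log2 difference 0.98, SE 0.10, adjusted p = 5.13e-07). Cdkn1a (p21, 0.36, SE 0.06), Hif3a (0.92, SE 0.20), Map3k6 (0.38, SE 0.08), the cortisone-reducing enzyme Hsd11b1 (0.43, SE 0.11) and the clearance receptor Mertk (0.29, SE 0.05) rose. The receptor Nr3c1 (-0.06) and its widely used targets Tsc22d3 (-0.01), Klf9 (-0.14) and Sgk1 (-0.07) were not called. The matched libraries kept Zbtb16 (1.48, adjusted p = 0.000101), Fkbp5 (0.94, adjusted p = 0.000275), Mertk (0.28, adjusted p = 0.0227) and Cdkn1a (0.37, adjusted p = 0.0231), and not Hif3a (1.05, adjusted p = 0.0539), Map3k6 (0.32, adjusted p = 0.2) or Hsd11b1 (0.34, adjusted p = 0.307). There the list held 4 called higher and 1 lower, the latter not called over all libraries, and its median was -0.00113.

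Several other genes were among the 15 largest changes in either direction or the 10 smallest p-values at a mean of at least 5 CPM. On the higher side these were Rasl10b, a Ras-like GTPase gene, from 5.95 (SD 0.562) to 13.2 (SD 2.57) CPM (1.16, SE 0.15), and Leo1, of the PAF complex that travels with RNA polymerase II, from 9.44 (SD 1.17) to 17.6 (SD 0.750) CPM (0.90, SE 0.10). The glutathione transferase gene Gsta3 (0.96, SE 0.22) and the glycosyltransferase gene Galnt15 (0.83, SE 0.14) rose as well, as did Crybg3 (0.75, SE 0.07) and Pdzd2 (0.49, SE 0.05). On the lower side were Ppp1r1b (DARPP-32), a phosphatase inhibitor, from 12.1 (SD 3.46) to 5.82 (SD 1.37) CPM (-1.06, SE 0.18), and Mamstr, a coactivator of MEF2 factors, from 17.1 (SD 2.53) to 8.93 (SD 1.602) CPM (-0.94, SE 0.12). The calcium pump gene Atp2b2 (-0.92, SE 0.15), the forkhead gene Foxo6 (-0.85, SE 0.17), the corepressor gene Rcor2 (-1.01, SE 0.22), Smim5 (-0.82, SE 0.09) and the imprinted Nnat (-1.15, SE 0.30) were lower. For the matched libraries Gsta3 (0.94, adjusted p = 0.142), Galnt15 (0.76, adjusted p = 0.0532), Foxo6 (-0.66, adjusted p = 0.146) and Rcor2 (-0.53, adjusted p = 0.343) did not pass and the other 9 did. A single library ended the calls of Nnat (ascending water 5, ascending BAPN 2, 3 and 4).

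Chaperones of the endoplasmic reticulum, where matrix proteins fold, were called in 1 direction, with 6 called higher and 0 lower of 26 tested (median 0.0604). Hspa5 (BiP, ENSMUSG00000026864, GRCm38 chr2:34771970-34777547) stood at 449, 472, 436, 474 and 458 CPM in the water libraries and 582, 582, 556, 614 and 540.4 CPM in the BAPN libraries. The groups did not overlap (log2 difference 0.33, SE 0.04, adjusted p = 8.39e-06). Its nucleotide exchange factor Hyou1 (0.28, SE 0.05), its co-chaperone Dnajc3 (0.20, SE 0.04), the secreted stress proteins Manf (0.32, SE 0.07) and Creld2 (0.28, SE 0.06) and the disulfide isomerase Pdia6 (0.18, SE 0.05) rose. The abundant chaperones Hsp90b1 (0.06), Calr (0.10) and Canx (0.08) were not called.

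Promoter stretches of the 4 called chaperone genes that have an entry are given because each holds the endoplasmic reticulum stress element, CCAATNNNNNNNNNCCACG, through which ATF6 acts. The fixed letters stand in capitals, in Creld2 on the opposite strand.
Hspa5, chr2:34771990-34772078, plus strand: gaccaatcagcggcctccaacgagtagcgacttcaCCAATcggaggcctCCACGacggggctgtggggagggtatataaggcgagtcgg
Creld2, chr15:88819485-88819573, plus strand: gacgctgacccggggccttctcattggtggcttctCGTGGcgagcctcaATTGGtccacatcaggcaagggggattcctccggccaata
Dnajc3, chr14:118937792-118937880, plus strand: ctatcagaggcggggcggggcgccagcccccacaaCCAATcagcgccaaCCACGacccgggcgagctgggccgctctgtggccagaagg
Pdia6, chr12:17266456-17266544, plus strand: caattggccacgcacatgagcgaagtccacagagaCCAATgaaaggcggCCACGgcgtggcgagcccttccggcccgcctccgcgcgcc
The element was found in 0.113% of the 32851 windows of 250 bases, in all 4 of these genes and in 3 of 17 chaperone genes that were not called (Calr, Canx and Hsp90b1). It lies 65 bases before the start in Hspa5, 98 in Pdia6, 105 in Dnajc3 and 126 in Creld2. Starts are those of RefSeq. The Hspa5 stretch lies inside the gene span given above, which comes from another annotation, GENCODE. Hyou1 and Manf have no entry. The element was thus not limited to the called genes.

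Of unfolded protein response genes 7.41% were called, of cytosolic heat shock genes 11.5% and of immediate early genes 3.57%, beside 6.34% of all genes. The sensors and effectors of the unfolded protein response held 1 called higher and 1 lower of 27 tested (median 0.0227). Xbp1, which encodes a transcription factor of the response, rose (0.20, SE 0.04), and Herpud1, which serves the degradation of misfolded proteins, fell (-0.18, SE 0.05). Sel1l, of the degradation complex, was at 0.11, adjusted p = 0.0654 and the stress-induced Sesn2 at -0.28, adjusted p = 0.171. The stress factors Atf4 (0.00) and Ddit3 (CHOP, -0.23) were not called. Cytosolic heat shock genes held 2 called higher and 1 lower of 26 tested (median 0.0522): Hsph1 (0.72, SE 0.16) and Stip1 (0.20, SE 0.06) were higher and the small heat shock gene Hspb7 lower (-0.31, SE 0.07), with the HSP90 cochaperone Ahsa1 at 0.15, adjusted p = 0.0561. Of the immediate early genes there were 1 called higher and 0 lower of 28 tested (median -0.0502), which was Ier5 (0.52, SE 0.10), while Ier3 (-0.25, adjusted p = 0.0517), Egr3 (-0.37, adjusted p = 0.0567), Jund (-0.28, adjusted p = 0.0954), Fos (0.18), Egr1 (-0.04) and Jun (-0.25) were not called. Over the matched libraries Hspa5 (0.30, adjusted p = 0.00313), Hyou1 (0.29, adjusted p = 0.0278) and Herpud1 (-0.25, adjusted p = 0.0355) passed. Dnajc3 (0.19, adjusted p = 0.0798), Manf (0.31, adjusted p = 0.0811), Creld2 (0.25, adjusted p = 0.111), Pdia6 (0.19, adjusted p = 0.194), Xbp1 (0.20, adjusted p = 0.0602), Hsph1 (0.38, adjusted p = 0.399), Hspb7 (-0.19, adjusted p = 0.325), Stip1 (0.12, adjusted p = 0.537) and Ier5 (0.44, adjusted p = 0.107) did not. Removing 1 library ended the calls of Pdia6 (ascending water 1, 3 and 5, ascending BAPN 1, 2 and 4), Herpud1 (ascending water 1, 4 and 5, ascending BAPN 1 and 4) and Stip1 (ascending water 1, 2, 3 and 4, ascending BAPN 2 and 4).

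Called genes of dividing cells were lower with few exceptions. Mitotic genes held 1 called higher and 23 lower of 47 tested (median -0.624), and genes of DNA replication held 1 called higher and 4 lower of 40 tested (median -0.237). Mki67, the nuclear antigen of cycling cells, stood at 14.7, 14.4, 16.4, 14.5 and 15.4 CPM in the water libraries and 9.99, 9.22, 7.32, 12.4 and 11.2 CPM in the BAPN libraries. No BAPN library reached the lowest water library (log2 difference -0.59, SE 0.12, adjusted p = 0.00199). Cdk1, the kinase that starts mitosis, stood at 3.89, 3.999, 5.39, 5.46 and 5.29 CPM in the water libraries and 3.45, 2.20, 2.04, 3.14 and 2.12 CPM in the BAPN libraries, with the groups apart (log2 difference -0.89, SE 0.18, adjusted p = 0.00277). Top2a, the topoisomerase of condensing chromosomes, went from 13.95 (SD 1.18) to 8.91 (SD 2.37) CPM (-0.65, SE 0.14), and Cdc20, an activator of the anaphase complex, from 6.07 (SD 0.969) to 3.92 (SD 0.560) CPM (-0.64, SE 0.13). Kinetochore and centromere genes fell, with Ndc80 at -1.13, SE 0.22, Bub1 at -0.98, SE 0.27, Cenpa at -0.54, SE 0.11, Cenpe at -0.79, SE 0.19 and Cenpf at -0.75, SE 0.16. So did genes of the spindle and its midzone, with Prc1 at -0.81, SE 0.17, Aspm at -0.78, SE 0.17, Nusap1 at -0.67, SE 0.15, Tpx2 at -0.58, SE 0.14, Kif11 at -0.57, SE 0.16, Kif20a at -0.81, SE 0.20, Hmmr at -0.76, SE 0.20 and Ckap2l at -0.64, SE 0.18. Ect2 (-0.52), Racgap1 (-0.62) and Cep55 (-1.04), which serve cytokinesis, and Pbk (-0.66), Cdca3 (-0.81) and Mxd3 (-0.86) were also called lower. The member that rose was Anln (anillin), an actin-binding protein of the cleavage furrow, from 89.4 (SD 6.39) to 116 (SD 8.85) CPM (0.38, SE 0.06). The mitotic genes that were not called all had negative log2 differences, between -0.91 and -0.10.

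Of the replication genes, the cyclin Ccne2 (-0.65, SE 0.13), the factor E2f1 (-0.46, SE 0.11), the helicase subunit Mcm5 (-0.51, SE 0.12) and the methylation guide Uhrf1 (-0.52, SE 0.14) fell, and another helicase subunit, Mcm6, was called higher (0.17, SE 0.05). Pcna, the sliding clamp, was not called (0.03). Of these replication genes Ccne2 passed in the matched libraries (-0.67, adjusted p = 0.042), and E2f1 (-0.36, adjusted p = 0.284), Mcm5 (-0.47, adjusted p = 0.186), Uhrf1 (-0.48, adjusted p = 0.28) and Mcm6 (0.17, adjusted p = 0.194) did not. In the matched libraries the mitotic count was 1 higher and 6 lower with a median of -0.607, including a lower gene not called over all libraries. Cdk1 (-1.05, adjusted p = 0.0129), Cenpa (-0.59, adjusted p = 0.0204), Ect2 (-0.65, adjusted p = 0.0213), Prc1 (-0.80, adjusted p = 0.0425), Racgap1 (-0.73, adjusted p = 0.0494) and Anln (0.48, adjusted p = 0.00124) passed there, while Mki67 (-0.58, adjusted p = 0.0504) and Top2a (-0.64, adjusted p = 0.085) did not, nor did the other 16 mitotic genes called lower. The calls that depended on a single library were those of Bub1 (ascending water 4, ascending BAPN 1 and 2), Kif11 (ascending water 3 and 4, ascending BAPN 1, 2, 3 and 4), Cdca3 (ascending BAPN 1 and 2), Hmmr (ascending water 2 and 3, ascending BAPN 2), Ckap2l (ascending water 2, 3 and 5, ascending BAPN 1, 2, 4 and 5), Cep55 (ascending water 4, ascending BAPN 1 and 3), Mxd3 (ascending water 1, 2 and 3, ascending BAPN 2 and 3), Uhrf1 (ascending water 1, 3 and 5, ascending BAPN 1, 2 and 3) and Mcm6 (ascending water 1, 3, 4 and 5, ascending BAPN 1, 2, 3, 4 and 5, descending BAPN 4).

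Promoters of Cdk1 and Mki67 are shown because they hold the cell cycle homology region, TTTGAA, through which the DREAM complex represses mitotic genes in resting cells. Its letters stand in capitals.
Cdk1, chr10:69352913-69353018, minus strand: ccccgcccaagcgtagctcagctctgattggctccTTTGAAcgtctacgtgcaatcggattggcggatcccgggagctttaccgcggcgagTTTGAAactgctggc
Mki67, chr7:135716437-135716530, minus strand: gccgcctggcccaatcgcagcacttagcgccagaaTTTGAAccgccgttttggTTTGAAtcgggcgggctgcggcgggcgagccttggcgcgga
These 6 letters were found in 16% of all windows, in 9 of 20 lower mitotic genes with a window and in 4 of 18 that were not called. Kif20a, Pbk and Tpx2 have no entry among the lower genes.

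Called were 5.88% of interferon response, 2.7% of macrophage and other immune cell and 11.5% of chemokine and cytokine genes, beside 6.34% of all genes tested. Of the 34 interferon response genes, 30 had a negative log2 difference, beside 7990 of all 15543 genes. Type I interferon response genes held 0 called higher and 2 lower of 34 tested (median -0.194), with Ifit3b from 5.91 (SD 1.11) to 2.70 (SD 0.849) CPM (-1.13, SE 0.19) and its near-identical neighbour Ifit3 from 20.05 (SD 2.82) to 13.03 (SD 2.34) CPM (-0.62, SE 0.16) lower. Reads of these 2 copies may be split between them. Ifit2 was at 0.20, adjusted p = 0.106 and the RNA sensor Ddx58 at -0.23, adjusted p = 0.106. Macrophage and other immune cell genes held 1 called higher and 0 lower of 37 tested (median 0.00473), which was Lyve1 (0.33, SE 0.09), also a lymphatic marker, while Gpnmb (0.48, adjusted p = 0.0553), the scavenger receptor Cd163 (0.24, adjusted p = 0.263), the mast cell protease Cpa3 (-0.46, adjusted p = 0.304), Cd68 (0.06), Adgre1 (0.06) and Csf1r (-0.02) were not called. Of the chemokine and cytokine genes there were 3 called higher and 0 lower of 26 tested (median -0.0404): the oncostatin receptor Osmr (0.26, SE 0.06), the interleukin-1 receptor Il1r1 (0.19, SE 0.05) and Ccl9 (0.43, SE 0.12), with the chemokine Cxcl14 at -0.77, adjusted p = 0.305. None of these passed in the matched libraries except Ifit3b (-1.28, adjusted p = 0.00397). A single library ended the calls of Ifit3 (ascending water 4, ascending BAPN 4), Lyve1 (ascending water 1, 2 and 3, ascending BAPN 1, 2, 3 and 4), Il1r1 (ascending water 2 and 3, ascending BAPN 3) and Ccl9 (ascending water 1, 2, 3 and 4, ascending BAPN 1 and 4).

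Among genes of other cells of the wall, 3.57% of endothelial, 7.14% of adventitial fibroblast and 10.5% of cartilage genes were called, beside 6.34% of all. For smooth muscle that has left the contractile state the share was 16.7%. Endothelial genes held 0 called higher and 1 lower of 28 tested (median -0.0425), which was the arterial factor Sox17 (-0.39, SE 0.10), and the median in the matched libraries was -0.200, where Vwf (-0.42, adjusted p = 0.042) and Mmrn2 (-0.39, adjusted p = 0.0138) passed although neither was called over all libraries (-0.25, adjusted p = 0.158, and -0.25, adjusted p = 0.065). Sox17 did not pass there (-0.50, adjusted p = 0.0602), and neither did Gsn (0.16, adjusted p = 0.213), Lgals3 (0.40, adjusted p = 0.122), Mgp (-0.19, adjusted p = 0.172) and Col9a3 (-0.58, adjusted p = 0.392), which are described next. Clec14a, an endothelial lectin, was at -0.13, adjusted p = 0.318. Adventitial fibroblast genes held 1 called higher and 1 lower of 28 tested (median -0.110): Gsn (gelsolin, 0.27, SE 0.05) rose and Mfap5, given above, fell, with Cd248 at -0.19, adjusted p = 0.054 and Pi16 at -0.22, adjusted p = 0.0602. Genes of smooth muscle that has left the contractile state held 1 called higher and 2 lower of 18 tested (median -0.0919), with Lgals3 (galectin-3) higher (0.42, SE 0.09), Mgp, an inhibitor of calcification, lower (-0.18, SE 0.05) and Eln as above, and with Spp1 (osteopontin) at -0.61, adjusted p = 0.0546. Cartilage genes held 0 called higher and 2 lower of 19 tested (median -0.163), which were Col11a2, given above, and Col9a3 (-0.69, SE 0.20), while Col11a1 (-0.54, adjusted p = 0.0759) and Snorc (-0.83, adjusted p = 0.105) were not called. Mesothelial, Schwann cell, adipocyte, cholesterol synthesis and oxidative phosphorylation genes held no call among 15, 18, 29, 25 and 68 tested. The smallest p-values were those of Igfbp6 (-0.31, adjusted p = 0.0813), Upk1b (-0.35, adjusted p = 0.194), Upk3b (-0.35, adjusted p = 0.312) and Rspo1 (-0.31, adjusted p = 0.368) for mesothelium and S100b (-0.30, adjusted p = 0.164), Cnp (-0.20, adjusted p = 0.297), Erbb3 (0.27, adjusted p = 0.301) and Egr2 (-0.36, adjusted p = 0.336) for Schwann cells. For adipocytes they were those of Lpl (0.32, adjusted p = 0.173), Retn (0.60, adjusted p = 0.346), Cidec (0.53, adjusted p = 0.386) and Elovl3 (1.38, adjusted p = 0.448). For cholesterol synthesis they were Stard4 (-0.24, adjusted p = 0.12), Pmvk (0.23, adjusted p = 0.147), Insig1 (-0.27, adjusted p = 0.17) and Srebf2 (0.13, adjusted p = 0.233), and for oxidative phosphorylation Ndufb9 (0.19, adjusted p = 0.122), Atp5a1 (0.12, adjusted p = 0.128), Ndufa9 (0.15, adjusted p = 0.136) and Uqcrc2 (0.17, adjusted p = 0.141). The summed markers of endothelium (799 to 1223 CPM under water and 871 to 1057 under BAPN), adventitial fibroblasts (2315 to 2702 and 2106 to 2571) and macrophages (220 to 315 and 236 to 303) overlapped between the groups. Removing 1 library ended the calls of Sox17 (ascending water 4 and 5, ascending BAPN 2), Mgp (ascending water 1, 2 and 4, ascending BAPN 1 and 3, descending water 3) and Col9a3 (ascending water 2, 3 and 4, ascending BAPN 1, 2, 3 and 5).

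**Figure D4:**
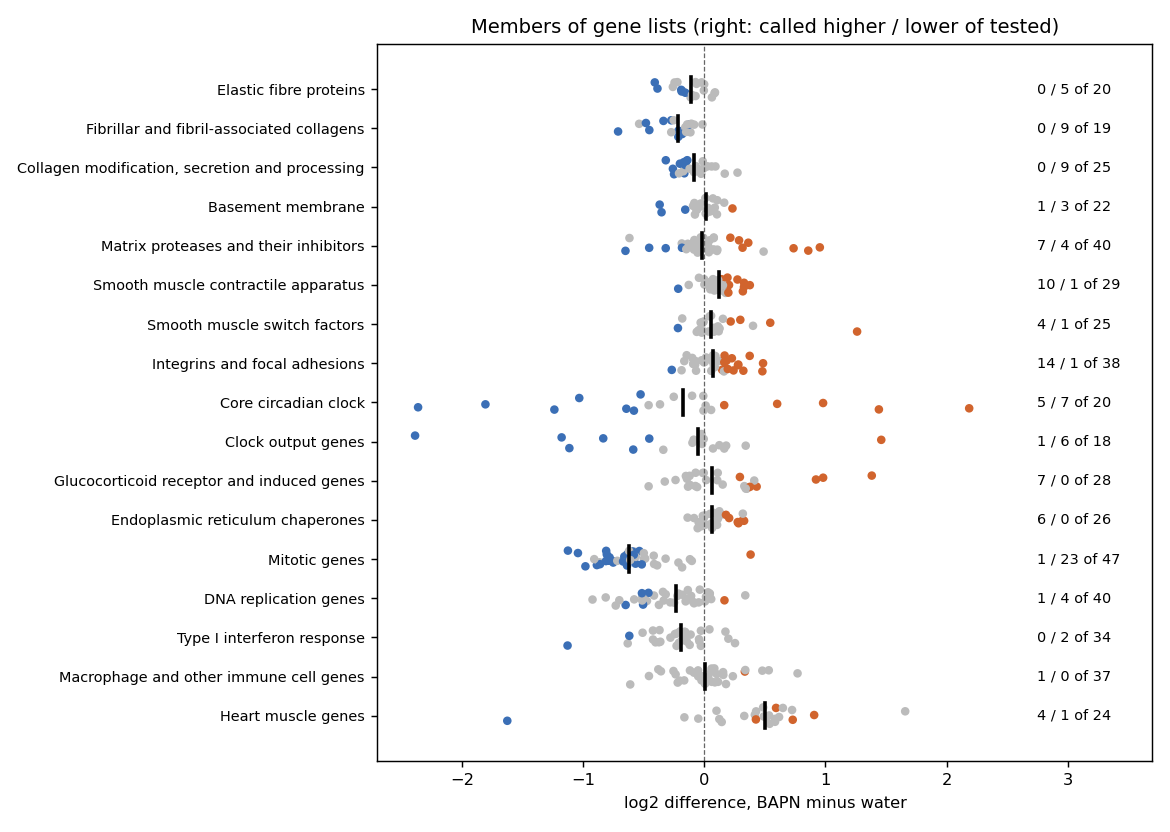
Log2 difference between BAPN and water (horizontal) of each tested member of 17 gene lists, with members called higher in orange, called lower in blue and not called in grey, and a black bar at each list's median. The dashed line is the median of all tested genes, and the mitotic list has the lowest median.

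Some calls given above also ended under another scaling, filter, tool or model. With relative log expression scaling this held for Bdnf (adjusted p = 0.0517). With upper-quartile scaling this held for Actn1 (adjusted p = 0.0551), Adamts9 (adjusted p = 0.0539), Bdnf (adjusted p = 0.0539), Itga1 (adjusted p = 0.0561), Mcm6 (adjusted p = 0.0603), Pdia6 (adjusted p = 0.054), Rbms3 (adjusted p = 0.058), Rora (adjusted p = 0.0565) and Svil (adjusted p = 0.053). With no filter on low counts this held for Actn1 (adjusted p = 0.102), Adamts9 (adjusted p = 0.0671), Col5a2 (adjusted p = 0.063), Col9a3 (adjusted p = 0.0534), Egfr (adjusted p = 0.0562), Il1r1 (adjusted p = 0.0517), Itga1 (adjusted p = 0.138), Lims1 (adjusted p = 0.0658), Mcm6 (adjusted p = 0.156), P3h1 (adjusted p = 0.0589), Plod2 (adjusted p = 0.0585), Rbms3 (adjusted p = 0.0701), Rora (adjusted p = 0.108) and Svil (adjusted p = 0.0644). With the ascending libraries fitted alone this held for Bdnf (adjusted p = 0.0507), Bub1 (adjusted p = 0.0536), Casq1 (adjusted p = 0.0512), Jag1 (adjusted p = 0.0596), Mgp (adjusted p = 0.0664), Myl3 (adjusted p = 0.0501), Tnnc1 (adjusted p = 0.0808) and Tnnt2 (adjusted p = 0.0659). With limma-voom this held for Acta1 (adjusted p = 0.0627) and Sox17 (adjusted p = 0.0544). With DESeq2 this held for Myl3 (adjusted p = 0.143), Myom2 (adjusted p = 0.134), Tnnc1 (adjusted p = 0.174) and Tnnt2 (adjusted p = 0.15). With the GC and length correction this held for Adamts9 (adjusted p = 0.0587), Bdnf (adjusted p = 0.0586), Col9a3 (adjusted p = 0.0583), Egfr (adjusted p = 0.0853), Loxl1 (adjusted p = 0.0879), Mcm6 (adjusted p = 0.0706) and Rbms3 (adjusted p = 0.0654). With the pseudogene set as a term, 76 of the 201 called genes named here or in the closing section were no longer called, among them Herpud1 (adjusted p = 0.0554), which passed in the matched libraries. When a log2 difference beyond 0.25 was required, 160 of the 201 were no longer called and 41 were kept. Lost were Lox and every called elastic fibre, contractile and endoplasmic reticulum chaperone gene. Among them were Eln (adjusted p = 0.268), Acta2 (adjusted p = 0.839) and Hspa5 (adjusted p = 0.49). Of the called fibrillar and fibril-associated collagens only Col11a2 was kept.

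The same contrast in the descending aorta shows which of these changes were shared. There, 1667 of the 15543 genes were called (10.7%). In that region all 5 BAPN libraries and water 3 and 4 had the lower pseudogene levels and water 1, 2 and 5 the higher ones, whereas all 5 ascending BAPN libraries had the higher ones. With the pseudogene set as a term 1126 genes were called there, and the difference between the regions had 0 calls. Of the 534 genes that rose in the ascending aorta, 520 had the same sign in the descending aorta and 391 were called in that direction. Of the 452 that fell, 422 had the same sign and 237 were called in that direction, and none of the 986 was called the opposite way. The difference between the regions in the BAPN effect was tested directly, and edgeR called 0 genes, with 1070 at an unadjusted p under 0.05 and a smallest adjusted p of 0.216. DESeq2 called 14 and limma-voom 0, and leaving out descending water 4 gave 16, descending BAPN 5 gave 1, and no filter on low counts gave 41. Ascending and descending libraries were not paired in these tests. By the edgeR fit no change can be called particular to the ascending aorta.

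The 5 smallest p-values of that difference belonged to Fndc5, Crim1, Dnajc9, Rasl10b and Prss35. Rasl10b was at 1.16, SE 0.15 in the ascending and 0.26, SE 0.14 in the descending aorta (difference 0.90, unadjusted p = 0.000173, adjusted p = 0.216). Prss35, a secreted protease homologue, was at -0.57, SE 0.10 and 0.17, SE 0.14 (difference -0.73, unadjusted p = 0.000195, adjusted p = 0.216). Fndc5 (-0.06 and -1.31), Crim1 (0.10 and 0.41) and Dnajc9 (0.04 and -0.40) were called in the descending aorta alone. The next pairs were chosen after their values were seen. Col4a3 was at -0.35 in the ascending and -0.05 in the descending aorta (difference -0.30, unadjusted p = 0.000484, adjusted p = 0.216), and Col4a4 at -0.37 and -0.09 (difference -0.28, unadjusted p = 0.00116, adjusted p = 0.298). Sparc was at -0.32 and -0.17 (difference -0.15, unadjusted p = 0.00711, adjusted p = 0.481), and Ctsk at -0.32 and -0.04 (difference -0.28, unadjusted p = 0.0015, adjusted p = 0.336). None of these differences passed the adjustment. Arntl (2.19 and 1.92), Dbp (-2.39 and -2.27), Acta2 (0.32 and 0.34), Lox (0.25 and 0.25) and Hspa5 (0.33 and 0.33) were at the values given in the ascending and descending aorta, in that order.

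**Figure D5:**
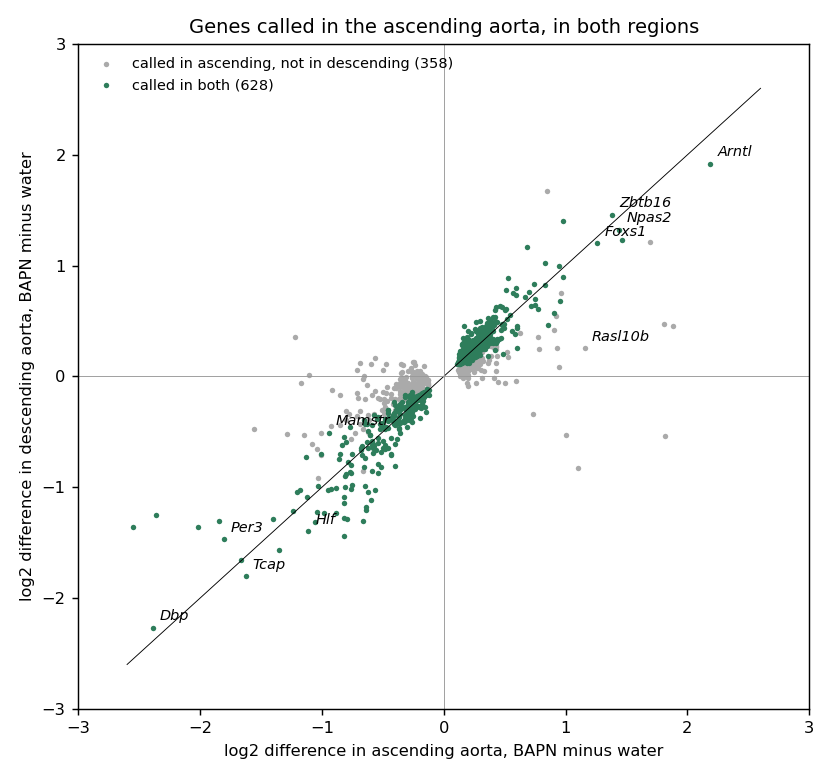
Log2 difference between BAPN and water in the ascending (horizontal) and the descending aorta (vertical) of the 986 genes called in the ascending aorta, with those also called in the descending aorta in green, and a line of equality. Of the genes, 628 are called in both, and points off the line, such as Rasl10b, did not pass the test of the difference.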

How the data were processed

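Bulk RNA-seq libraries of mouse aorta were used as gene counts that the authors deposited as 1 table. The submitters' processing notes name fastp, STAR 2.5, HTSeq 0.6.1 and mm10; settings and annotation are not given in the sources used here. Genes with low counts were removed by edgeR's filterByExpr (15543 of 54532 kept), library sizes were adjusted with TMM (trimmed mean of M values), and edgeR 4.0.16 (R 4.3.3, limma 3.58.1) fitted all 4 groups together with its quasi-likelihood test, with Benjamini-Hochberg adjustment over all genes tested. DESeq2 1.42.0, limma-voom, other scalings, filters and models, and leaving out each library were tried as alternatives; a GC and length correction was added after the data were seen. The main edgeR fit was tested on simulated data for the ascending contrast, and the other fits were not. Genes were named by a rule: at a mean of 5 CPM or more, and leaving out predicted genes, pseudogenes and receptor segments, the 15 largest rises, the 15 largest falls and the 10 smallest p-values among the calls, every called member of a described list (with the smallest p-values up to 4 where fewer were called), the lysyl oxidases and Eln, and the 5 smallest p-values of the regional difference. Other genes that were not called were named for their role. A gene that the rule selects is not reported here. Members and lists were chosen with earlier results of these data known, so their counts are descriptions. Promoter windows came from RefSeq (GRCm38.p6). Figures were drawn with matplotlib 3.10.9.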

Additional observations from a re-analysis of the deposited data

Results flagged for a closer look

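In each group of 5 ascending libraries the highest and the lowest library were set against the others, for every gene named above and for the library totals. In 34 of 630 groups (5.4%) a library stood apart from the other 4, where chance gives about 1 in 20. Values are in CPM, with the range of the other 4 libraries of the group. Among genes called higher, the libraries that stood apart follow. These were Galnt15 at 40.6 in ascending water 5 against 35.3 to 36.4, Hsd11b1 at 11.8 in ascending water 4 against 9.66 to 10.2, Itga1 at 164 in ascending BAPN 5 against 151 to 154 and Itga7 at 159 in ascending water 3 against 169.9 to 174. Others were Itgb1 at 1979 in ascending BAPN 1 against 2151 to 2184, Leo1 at 7.35 in ascending water 4 against 9.94 to 10, Lgals3 at 21.6 in ascending BAPN 4 against 17.7 to 18.3 and Osmr at 46.2 in ascending BAPN 3 against 40.9 to 42.1. Further values were Tnnt2 at 345 in ascending BAPN 4 against 227 to 256 and Zbtb16 at 33.6 in ascending water 2 against 23.0 to 26.0. Among genes called lower, they follow here. These were Adamts10 at 269 in ascending water 4 against 298 to 306, Cenpf at 4.41 in ascending BAPN 4 against 2.92 to 3.35, Ciart at 1.202 in ascending water 3 against 3.41 to 3.89 and Col1a1 at 4502 in ascending water 4 against 4786 to 4900.0. Others were Ctsk at 68.1 in ascending water 3 against 73.6 to 75.8, Ifit3 at 8.88 in ascending BAPN 4 against 13.6 to 14.4, Kif20a at 2.87 in ascending BAPN 4 against 1.34 to 1.74 and Mamstr at 21.6 in ascending water 1 against 15.7 to 16.3. Further values were Mamstr at 11.8 in ascending BAPN 5 against 7.94 to 8.58, Mfap5 at 675 in ascending water 2 against 571 to 595, Mfap5 at 519 in ascending BAPN 1 against 529 to 531 and Pcolce at 248 in ascending BAPN 1 against 199.8 to 212. Among genes not called, they follow last. These were Calr at 504 in ascending water 5 against 540.5 to 554, Cd248 at 124 in ascending BAPN 1 against 98.2 to 101, Cd68 at 6.15 in ascending water 4 against 7.76 to 8.41 and Egr2 at 5.25 in ascending water 4 against 3.19 to 3.78. Others were Elovl3 at 0.717 in ascending BAPN 4 against 0 to 0.157, Hsp90b1 at 297 in ascending water 5 against 317 to 325, Igfbp6 at 103 in ascending BAPN 1 against 79.5 to 83.5 and Loxl4 at 14.8 in ascending water 5 against 13.5 to 13.8. Further values were Myh11 at 5552 in ascending water 1 against 4695 to 4856, Pi16 at 548 in ascending BAPN 1 against 431 to 452, Tagln at 73.8 in ascending water 2 against 55.2 to 59.0 and Upk1b at 14.9 in ascending water 1 against 22.5 to 25.2.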

How the results depend on the processing

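The 986 calls became 542 with the pseudogene set as a term (487 shared), 333 in the matched libraries (289 shared) and 73 when a log2 difference beyond 0.25 was required, where the descending aorta kept 177. Other settings gave 951 to 1270 calls, and leaving out 1 library 719 to 1094. The difference between the regions had 41 calls with no filter, 14 by DESeq2, 9 with the replicate block and 0 to 16 on leaving out 1 library. The replicate block gave 1013 calls in the ascending aorta and did not call 10 of the 201 called genes named in the text (Actn1 at adjusted p = 0.0506, Col12a1 at adjusted p = 0.0643, Col5a2 at adjusted p = 0.0693, Col9a3 at adjusted p = 0.07, Itga1 at adjusted p = 0.0594, Kcnmb1 at adjusted p = 0.0622, Kif11 at adjusted p = 0.0647, Rora at adjusted p = 0.0551, Stip1 at adjusted p = 0.0522 and Uhrf1 at adjusted p = 0.059). Same-numbered ascending water and ascending BAPN libraries correlated at -0.129 to 0.232 in their deviations from group means, so the numbers were not taken to pair these libraries. The block likewise joined same-numbered libraries within a region only. Same-numbered ascending and descending libraries were not compared in this way. All libraries were fitted as independent, and whether the regions share animals was not tested. The difference in library totals ranged from -2976688 to -1598683 counts on leaving out 1 library. Depth limits the lowest genes, where few reads stand behind each value. The cause of these changes was not tested.

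Medians of gene lists, on the log2 scale, moved by more than their spread between libraries as follows. With the pseudogene set as a term the median was -0.0579 for elastic fibre proteins, -0.163 for fibrillar and fibril-associated collagens, -0.0663 for collagen modification, secretion and processing, 0.00278 for matrix proteases and their inhibitors, 0.179 for smooth muscle contractile apparatus, 0.0378 for smooth muscle switch factors, 0.00568 for Notch signalling, -0.0243 for glucocorticoid receptor and induced genes, -0.0177 for unfolded protein response sensors and effectors, -0.145 for macrophage and other immune cell genes and -0.0565 for lymphatic endothelial genes. In the matched libraries the median was 0.000503 for lysyl oxidase family, -0.153 for small leucine-rich and large proteoglycans, 0.193 for smooth muscle contractile apparatus, 0.0396 for smooth muscle switch factors, 0.0318 for YAP/TAZ targets, -0.011 for Notch signalling, -0.233 for clock output genes, -0.0271 for unfolded protein response sensors and effectors, -0.169 for macrophage and other immune cell genes, -0.2 for vascular endothelial genes, 0.0152 for lymphatic endothelial genes and -0.0146 for genes of hereditary thoracic aortic disease. By limma-voom the median was -0.105 for collagen modification, secretion and processing. On leaving out each library the range was -0.128 to -0.0761 for collagen modification, secretion and processing, -0.158 to -0.0384 for small leucine-rich and large proteoglycans, -0.0512 to 0.0148 for matrix proteases and their inhibitors, 0.0346 to 0.0879 for smooth muscle switch factors, -0.0275 to 0.0342 for angiotensin, endothelin and adrenergic systems, -0.105 to -0.033 for Notch signalling, -0.171 to -0.0814 for Wnt ligands and modulators, -0.24 to -0.128 for core circadian clock, -0.0216 to 0.0323 for unfolded protein response sensors and effectors, -0.245 to -0.192 for DNA replication genes and -0.368 to -0.0899 for cartilage genes.

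Genes that were not called, and whose log2 difference changed sign, had the following values. With relative log expression scaling the value was -0.0019 for Lmod1 and -0.000846 for Postn. With upper-quartile scaling the value was -0.00884 for Atf4, -0.0136 for Lmod1 and -0.0124 for Postn. With no filter the value was -0.00774 for Atf4, -0.0121 for Lmod1 and -0.0112 for Postn. With the pseudogene set as a term the value was -0.0996 for Adgre1, -0.0277 for Atf4, 0.0249 for Cry2, 0.0951 for Egr1, 0.0542 for Fndc5, 0.0836 for Lonrf3, 0.0184 for Loxl2, -0.0286 for Pcna, 0.015 for Serpinh1, 0.00848 for Smad3 and 0.0445 for Tagln. In the matched libraries the value was -0.157 for Adgre1, -0.109 for Atf4, -0.073 for Ccn2, -0.0271 for Cd163, -0.0524 for Cidec, 0.0288 for Cry2, 0.239 for Egr1, -0.116 for Klf4, 0.000503 for Loxl2, 0.000981 for Loxl3, -0.0232 for Pcna, -0.0594 for Retn and 0.0804 for Tagln. With ascending libraries alone the value was 0.000276 for Tagln. With the replicate block the value was 0.00468 for Tagln and 0.0197 for Tsc22d3. By limma-voom the value was 0.00869 for Tagln and 0.0171 for Tsc22d3. By DESeq2 the value was -0.0019 for Lmod1 and -0.000845 for Postn. With the GC and length correction the value was -0.00925 for Postn, 0.000553 for Serpinh1 and 0.0096 for Tagln. On leaving out each library the range was -0.0142 to 0.14 for Adgre1, -0.0363 to 0.0618 for Atf4, -0.0106 to 0.0965 for Cd68, -0.0882 to 0.0416 for Csf1r, -0.152 to 0.0821 for Egr1, -0.257 to 1.82 for Elovl3, -0.141 to 0.058 for Fndc5, -0.0568 to 0.0598 for Lmod1, -0.225 to 0.139 for Lonrf3, -0.028 to 0.0394 for Postn, -0.225 to 0.0797 for Sgk1, -0.0508 to 0.00456 for Smad3, -0.0334 to 0.074 for Tagln, -0.00623 to 0.156 for Thbs1 and -0.167 to 0.202 for Tsc22d3.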

Other observations

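Called shares were 7.69% for ion channels and calcium handling, 3.12% for vasoactive systems and 7.41% for oxidative stress, beside 6.34% of all genes. Ion channels and calcium handling genes of smooth muscle, which set its tone, held 2 called higher and 1 lower of 39 tested (median 0.0293). Itpr1, the calcium release channel of the sarcoplasmic reticulum, rose from 231 (SD 11.3) to 269 (SD 9.72) CPM (log2 difference 0.22, SE 0.05, adjusted p = 0.00918), and Kcnmb1, a subunit of the calcium-activated potassium channel, was at 0.13, SE 0.04. Ano1, a calcium-activated chloride channel, was called lower (-0.16, SE 0.04). Genes of vasoactive systems held 1 called higher and 0 lower of 32 tested (median 0.00684), which was Rgs5, a brake on G protein signalling in mural cells (log2 difference 0.26, SE 0.05, adjusted p = 0.00352). Renin (Ren1, -0.65, adjusted p = 0.0566), Rgs2 (-0.33, adjusted p = 0.0662) and the cyclic GMP phosphodiesterase Pde5a (0.16, adjusted p = 0.0731) were not called. Genes of the oxidative stress response held 1 called higher and 1 lower of 27 tested (median 0.00860). Gclc, the rate-limiting enzyme of glutathione synthesis, was higher (0.21, SE 0.06), and the peroxide-reducing enzyme gene Prdx6 fell (-0.28, SE 0.05), with the oxidase subunit Cybb at -0.26, adjusted p = 0.338 and the glutathione reductase gene Gsr at 0.08, adjusted p = 0.383. In the matched libraries the values were 0.21, adjusted p = 0.144 for Itpr1, 0.18, adjusted p = 0.0795 for Kcnmb1, -0.14, adjusted p = 0.303 for Ano1, 0.31, adjusted p = 0.0252 for Rgs5, 0.21, adjusted p = 0.29 for Gclc and -0.38, adjusted p = 0.00163 for Prdx6. Removing 1 library ended the calls of Kcnmb1 (ascending water 1, 3, 4 and 5, ascending BAPN 1, 2, 3, 4 and 5, descending water 2, 3, 4 and 5, descending BAPN 1, 3 and 4), Ano1 (ascending water 2 and 3, ascending BAPN 2, 3 and 4) and Gclc (ascending water 1, 2, 3, 4 and 5, ascending BAPN 2, 3, 4 and 5, descending water 2, 3 and 5, descending BAPN 3). The call of Kcnmb1 also ended with relative log expression scaling (adjusted p = 0.0505), upper-quartile scaling (adjusted p = 0.0818), no filter on low counts (adjusted p = 0.191) and the GC and length correction (adjusted p = 0.0735). The call of Gclc also ended with upper-quartile scaling (adjusted p = 0.0657), no filter on low counts (adjusted p = 0.105) and the GC and length correction (adjusted p = 0.0534).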
